A study of Bos taurus with 6 samples.

Results

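The 6 miRNAs described here are both arms of bta-miR-126 and of bta-miR-199a, and the single listed bta-miR-199b and bta-miR-214. They are known from blood vessel walls and platelets. They were taken by name from a table of 706 miRNAs, 359 of them known Bos taurus miRNAs, and all 6 had a row. The set was built around bta-miR-126-5p and bta-miR-199a-3p, which the study had listed as different between its diets. For this pair the difference between the diets is therefore a description with no test. The other 4 are their opposite arms and their relatives by sequence or gene.

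Serum extracellular vesicles (EVs), small membrane-bound packets shed by cells into the blood, were isolated from 6 female Holstein cows in mid lactation. The control group was 3 cows on a total mixed ration (TMR). The tested group was 3 cows whose feed held whole cotton seed and soybean hull in place of some of its alfalfa hay. Blood was taken on day 30 in tubes without anticoagulant, so it clotted before the serum was drawn off, and each cow gave 1 small RNA library. A vesicle preparation from serum holds vesicles of many cell types, and the number of vesicles of a cell type cannot be told apart from the amount of RNA in each.

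A miRNA is cut from a hairpin RNA that has a 5′ arm and a 3′ arm, and either arm can be kept as the mature miRNA. The mature miRNA finds its target mRNAs mainly through its seed, bases 2 to 8, and lowers their translation or stability. The hairpin of miR-126 lies in EGFL7, a gene of blood vessel endothelium, and miR-126 is best known for keeping vascular growth factor signalling in endothelial cells responsive and for being carried in platelets. The miR-199a and miR-214 hairpins are known from smooth muscle cells, fibroblasts and other cells of connective tissue, and miR-199a-3p also from platelets.

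The listed sequences are shown because arm shares and shared seeds rest on them. They are written 5′ to 3′ in DNA letters as in the deposited table, with the seed in capitals.
bta-miR-126-3p: cGTACCGTgagtaataatgcg
bta-miR-126-5p: cATTATTActtttggtacgcg
bta-miR-199a-3p: aCAGTAGTctgcacattggtta
bta-miR-199a-5p: cCCAGTGTtcagactacctgtt
bta-miR-199b: cCCAGTGTttagactatctgttc
bta-miR-214: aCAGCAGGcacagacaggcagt

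The listed lengths were 21 nt for both arms of miR-126, 22 nt for both arms of miR-199a and for bta-miR-214, and 23 nt for bta-miR-199b. The seed CCAGTGT was shared by bta-miR-199a-5p and bta-miR-199b, and no other listed miRNA had it. Each of the other 4 seeds belonged to a single listed miRNA. Counted from the 5′ end, bta-miR-199b differed from bta-miR-199a-5p by C10T and C17T and was longer by 1 base at its 3′ end, so 20 of the 22 bases compared were the same. No listed sequence lay wholly inside that of a member. The 2 arms of miR-126 were complementary without a gap over 10 bases, from base 10 to base 19 of the 3p arm and from base 1 to base 10 of the 5p arm. The 3p arm of the miR-199b hairpin, which in mammals has the sequence of miR-199a-3p, had no row of its own, so reads listed under bta-miR-199a-3p can come from either hairpin.

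In the RefSeq annotation of assembly ARS-UCD2.0, all 6 members matched a miRNA gene by name. MIR126 lay inside EGFL7. MIR199A-1 and MIR214 lay together inside DNM3 and inside the same long noncoding RNA, LOC132342463. MIR199A-2 lay inside DNM2 and MIR199B inside DNM1, so every miR-199 and miR-214 hairpin was placed in a dynamin gene. The submitters' processing notes name assembly ARS-UCD1.2, and positions are therefore not given.

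Levels are given as CPM, counts scaled to a library total of 1000000 known miRNA counts, and a library held between 1226928 and 2088249 known miRNA counts. The 6 miRNAs were rare in these serum EVs. Together they had 1380 counts over the 6 libraries, which is 0.0129% of the known miRNA counts. Of these, bta-miR-199a-3p held 33.0%, bta-miR-126-3p 29.6%, bta-miR-126-5p 28.0%, bta-miR-199a-5p 6.96%, bta-miR-214 1.59% and bta-miR-199b 0.797%. By mean level, their ranks among the 359 known miRNAs ran from 133 for bta-miR-199a-3p to 308 for bta-miR-199b. All 6 had a count in every library, except for bta-miR-214 in tested cow 3.

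For bta-miR-126-3p, the arm that restrains inhibitors of growth factor signalling in endothelium, the level was 60.5, 27.9 and 6.53 CPM in control cows 1 to 3 against 63.6, 27.1 and 56.5 CPM in tested cows 1 to 3. Control cow 3 was far below the other cows, and the groups overlapped. The counts behind these levels were 93, 56 and 13 in the control group, against 78, 51 and 118 in the tested group. For control cow 3 the 95% Wilson interval was 3.82 to 11.2 CPM and for tested cow 1 it was 50.9 to 79.3 CPM. Since PCR duplicates cannot be recognised here, the intervals describe the error of counting and nothing else.

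The opposite arm, bta-miR-126-5p, known to support the renewal of endothelial cells, had 18.2, 10.5 and 4.02 CPM in the control cows, against 71.7, 6.39 and 109.7 CPM in the tested cows. Tested cows 1 and 3 were above every control cow, and tested cow 2 was below control cows 1 and 2. Its highest library was 27.3 times its lowest. The counts were 28, 21 and 8 in the control group, against 88, 12 and 229 in the tested group.

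For bta-miR-199a-3p, known as a brake on the growth regulators MTOR and MET, the level was 11.1, 22.4 and 6.03 CPM in the control cows, against 183, 19.2 and 58.4 CPM in the tested cows. The highest value came from tested cow 1, and tested cow 2 was again inside the range of the control group. Its highest library was 30.3 times its lowest. The counts were 17, 45 and 12 in the control group, against 224, 36 and 122 in the tested group.

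The level of bta-miR-199a-5p, known to target the low-oxygen transcription factor HIF1A, was 18.2, 3.98 and 0.502 CPM in the control cows, against 4.89, 27.1 and 0.958 CPM in the tested cows. It was highest in tested cow 2 and in control cow 1, and lowest in control cow 3 and tested cow 3, where it had 1 and 2 counts.

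The relative bta-miR-199b was nearly absent, with 2, 2 and 1 counts in the control cows, against 1, 4 and 1 in the tested cows, or between 0.479 and 2.13 CPM. The Wilson intervals of all its libraries overlapped, so no difference between cows was detectable at this depth. The level of bta-miR-214, which shares a host transcript with a miR-199a hairpin, rested on 3, 2 and 4 counts in the control cows, against 8, 5 and 0 in the tested cows. A count of 0 is read here with a one-sided limit of 3 counts rather than a Wilson interval, so its 0 in tested cow 3 allows up to 1.44 CPM, and its highest level was 6.52 CPM in tested cow 1.

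**Figure D1:**
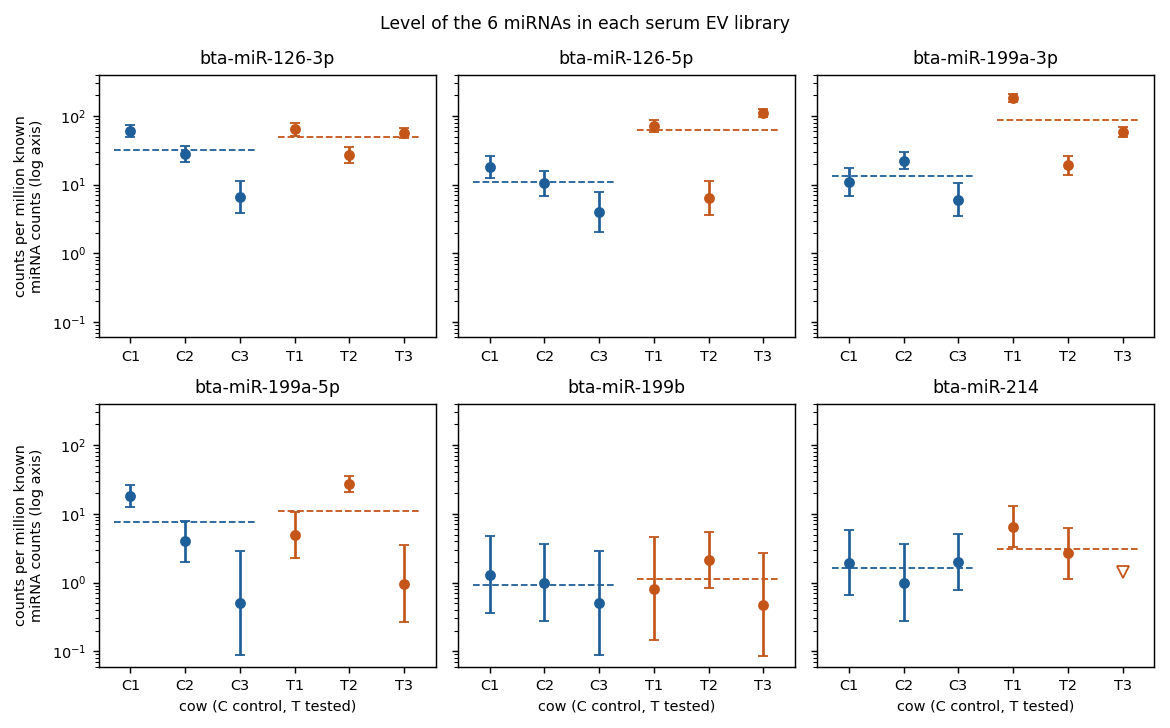
CPM of known miRNA counts (log axis) of each miRNA in control cows (C1 to C3, blue) and tested cows (T1 to T3, orange), with 95% Wilson intervals as bars and the group mean as a dashed line. The open triangle marks a count of 0, drawn at 3 counts; bta-miR-126-5p and bta-miR-199a-3p are high in T1 and T3 and not in T2.

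The spread between cows was wide. The coefficient of variation over the 6 libraries was 135% for bta-miR-199a-3p, 119% for bta-miR-126-5p and 57.4% for bta-miR-126-3p. Among the 184 known miRNAs with a mean of at least 10 CPM, these values ranked 10, 17 and 67 from the most variable, and the median of the 184 was 36.9%. The values of bta-miR-199a-5p (117%), bta-miR-214 (95.1%) and bta-miR-199b (59.6%) are not ranked because their means were below 10 CPM. These ranks are a description, since the difference between the diets is part of the spread.

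To ask which members stood above others whatever the diet, log2(CPM + 1) was compared within each library for the 15 pairs of members by a two-sided exact sign-flip permutation test, adjusted over the 15 pairs by the method of Benjamini and Hochberg. The smallest p that 6 libraries allow is 0.03125. It was reached by 6 pairs, in which bta-miR-126-3p, bta-miR-126-5p and bta-miR-199a-3p each lay above bta-miR-199b and bta-miR-214 in 6 of 6 libraries, and their adjusted p was 0.0781. With 6 of 15 pairs at the smallest p, an adjusted p below 0.05 was out of reach, so its absence says nothing about these differences. The mean differences of these 6 pairs ran from 2.84 for bta-miR-126-5p over bta-miR-214 to 4.09 for bta-miR-126-3p over bta-miR-199b on the log2 scale.

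By mean level over the 6 cows the order was bta-miR-199a-3p at 49.9 CPM, bta-miR-126-3p at 40.4, bta-miR-126-5p at 36.7, bta-miR-199a-5p at 9.28, bta-miR-214 at 2.36 and bta-miR-199b at 1.04. The first place of bta-miR-199a-3p rests on tested cow 1, without which its mean was 23.4 CPM. For no neighbours in this order did the difference exceed the spread between libraries by this test. The difference between bta-miR-126-3p and bta-miR-199a-3p was 0.28 ± 1.24 (SD, n = 6) on the log2 scale, with bta-miR-126-3p higher in 4 of 6 libraries (exact sign-flip permutation test, p = 0.562). Between the arms of miR-126 it was 0.74 ± 1.13 (SD, n = 6) in favour of the 3p arm (exact sign-flip permutation test, p = 0.188). Between bta-miR-126-5p and bta-miR-199a-5p it was 1.74 ± 2.72 (SD, n = 6), with the former higher in 4 of 6 libraries (exact sign-flip permutation test, p = 0.25).

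By the counts, the leading arm of both hairpins changed from cow to cow, though not always by more than counting error. For miR-126, the 3p arm held 76.9%, 72.7% and 61.9% of the counts of both arms in control cows 1 to 3 against 47.0%, 81.0% and 34.0% in tested cows 1 to 3. It led in 4 of the 6 libraries. In tested cow 3 the 95% Wilson interval was 29.2% to 39.1% on 347 counts, and in control cow 1 it was 68.6% to 83.5% on 121 counts, so these libraries differed by more than counting error. The interval of tested cow 1, 39.5% to 54.6%, and that of control cow 3, 40.9% to 79.2% on 21 counts, span equal shares, so neither arm clearly led there. Tested cow 2, with 69.6% to 88.8% on 63 counts, lay with the control cows. The control group had a mean of 70.5% ± 7.72 (SD, n = 3) and the tested group one of 54.0% ± 24.2 (SD, n = 3). No test of this difference is given for either hairpin, because an arm of each was chosen for its difference between the diets.

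For miR-199a, the 3p arm held 37.8%, 84.9% and 92.3% in the control cows, against 97.4%, 41.4% and 98.4% in the tested cows. It also led in 4 of the 6 libraries, but the exceptions were control cow 1 and tested cow 2 in place of tested cows 1 and 3. The Wilson intervals were 25.1% to 52.4% in control cow 1 and 31.6% to 51.9% in tested cow 2, both reaching just above equal shares, against 94.4% to 98.8% in tested cow 1. In control cow 3 only 13 counts stood behind the share, with an interval of 66.7% to 98.6%. The control group had a mean of 71.7% ± 29.6 (SD, n = 3) and the tested group one of 79.1% ± 32.6 (SD, n = 3), and the groups overlapped.

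**Figure D2:**
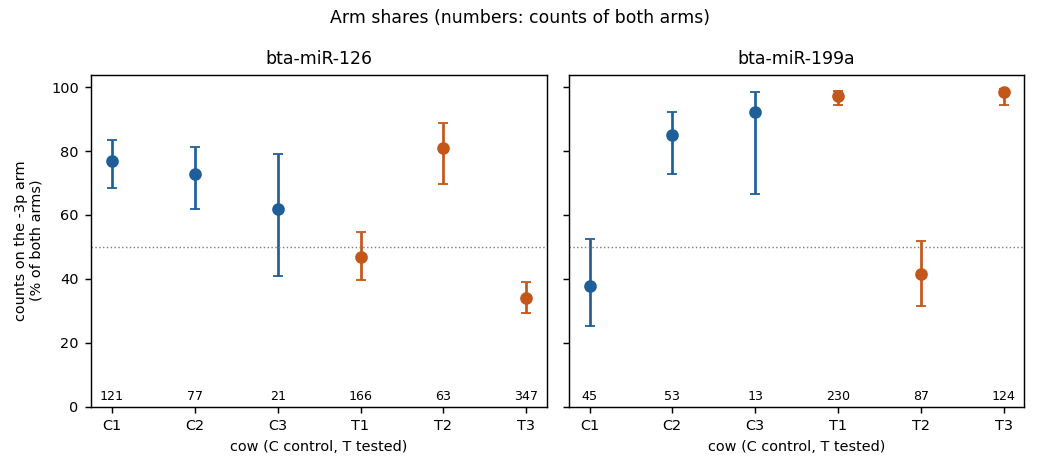
Share of the 3p arm in the counts of both arms of miR-126 (left) and miR-199a (right), in percent, for control (blue) and tested (orange) cows with 95% Wilson intervals. The number above each cow is the count of both arms, and the dotted line marks equal arms; for miR-126 the 3p arm is below it in T1 and T3, for miR-199a in C1 and T2.

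As background, 16 pairs of known arms in the table had at least 10 counts in every library. By the counts, with no regard to their error, the leading arm differed between libraries for 3 of the 16, namely miR-199a, miR-6119 and miR-126. The range of the 3p share over the libraries was 60.6 percentage points for miR-199a and 46.9 percentage points for miR-126, against a median of 6.74 percentage points over the 16 pairs. The counts behind a share went down to 13 for miR-199a and 21 for miR-126, and pairs with more counts have smaller counting error. An arm of each of these hairpins was chosen for its difference between the diets in the same libraries, which can widen its range. The mean 3p share of other pairs went down to 0.0917% for let-7a and up to 98.9% for miR-22. Such shares leave little room for a range, so the comparison with the 16 pairs is a description.

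Covariation was measured over the 6 libraries on log2(CPM + 1) for the same 15 pairs, with exact permutation tests over all pairings. All members of a library share its preparation and depth. The Pearson correlation ran from -0.39 to 0.95, and 10 of the 15 pairs were positive. No pair had an adjusted p below 0.05, and 3 had an unadjusted p below it, against 1 with counts scaled to clean reads. These 3 include bta-miR-126-5p with bta-miR-199a-3p, which were both chosen for the same difference between the diets, so their correlation is given as a description with no p.

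The closest pair was bta-miR-199a-5p and bta-miR-199b, which share a seed and come from different hairpins. Its Pearson r was 0.95 (exact permutation p = 0.00556, adjusted 0.0833) and its Spearman rho 0.89 (exact permutation p = 0.0333, adjusted 0.438). Without the 2 libraries farthest from the median of bta-miR-199a-5p, control cow 3 and tested cow 2, r was 0.95. For deviations from the group means it was also 0.95. The level of bta-miR-199b rests on 1 to 4 counts per library. The sequences are the same at 20 of the 22 bases compared, and whether reads of bta-miR-199a-5p were listed under bta-miR-199b was not tested.

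The arms of miR-126 had an r of 0.79 (exact permutation p = 0.0403, adjusted 0.201) and a rho of 0.83 (exact permutation p = 0.0583, adjusted 0.438). Without control cow 3 and tested cow 1, r was 0.75, and for deviations from the group means it was 0.73. With counts scaled to clean reads in place of known miRNA counts, it was 0.52. Between bta-miR-126-5p and bta-miR-199a-3p, from different hairpins, r was 0.83 and rho 0.77. Without tested cows 1 and 3 this r was 0.36, so it rests on those cows together, while with 1 cow left out at a time it ran from 0.76 to 0.88. For deviations from the group means it was 0.73.

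For the arms of miR-199a no relation was found. Their r was -0.06 (exact permutation p = 0.914, adjusted 0.979) and their rho 0.09 (exact permutation p = 0.919, adjusted 1). The r was -0.85 without control cow 3 and tested cow 1 together. Between bta-miR-126-3p and bta-miR-199a-3p, r was 0.68 (exact permutation p = 0.131, adjusted 0.490) and rho 0.66 (exact permutation p = 0.175, adjusted 0.656), and r was 0.12 without control cow 3 and tested cow 1 and 0.43 with counts scaled to clean reads.

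**Figure D3:**
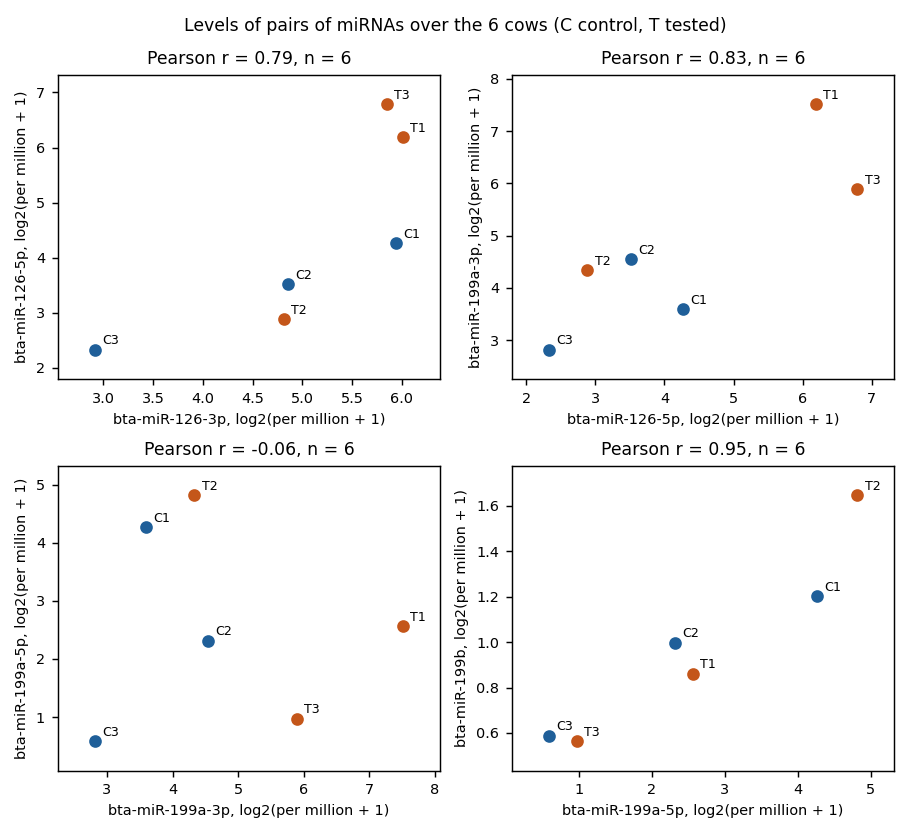
Levels of 4 pairs of members over the 6 cows as log2(CPM + 1), with control cows in blue and tested cows in orange. The arms of miR-126 lie along a rising line, the arms of miR-199a do not, and bta-miR-199b follows bta-miR-199a-5p on very few counts.

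Among other known miRNAs with a mean of at least 10 CPM, those most like a member were found by the same r over the 6 libraries, as a description over 181 miRNAs. For bta-miR-126-3p they were bta-miR-11976 (r = 0.96), bta-miR-669 (0.94) and bta-miR-22-3p (0.91), which is also on the platelet and endothelial list. For bta-miR-126-5p they were bta-miR-128 (r = 0.94), bta-miR-181c (0.93) and bta-miR-339b (0.93). The last of these had no count in control cows 2 and 3 and tested cow 2 and 1059 CPM in tested cow 3. Its sequence lies wholly inside that of bta-miR-339a, as that of bta-miR-11975 does inside bta-miR-11976, and how the reads of such entries were divided was not tested. For bta-miR-199a-3p they were bta-miR-769 (r = 0.94), bta-miR-200b (0.92) and bta-miR-128 (0.89).

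The study asked whether replacing part of the alfalfa hay changed the miRNAs of serum EVs. The quasi-likelihood test of edgeR was run on all 623 miRNAs with at least 10 counts over the 6 libraries, and all 6 members were among them. A miRNA passed with an unadjusted p below 0.05 and an absolute log2 fold change above 1. A positive log2 fold change means a higher level in the tested group.

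For bta-miR-126-5p the control group had 10.9 ± 7.11 CPM (SD, n = 3) and the tested group 62.6 ± 52.2 CPM (SD, n = 3). Its log2 fold change was 2.44 ± 1.26 (SE), or 1.84 without tested cow 3. For bta-miR-199a-3p these levels were 13.2 ± 8.39 (SD, n = 3) and 86.7 ± 85.3 CPM (SD, n = 3), and the log2 fold change was 2.66 ± 1.10 (SE), or 1.46 without tested cow 1. In each, 2 of the 3 tested cows were above every control cow and tested cow 2 was not. The SD of the tested group was close to its mean for both. These are the values that brought the pair into the set.

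For bta-miR-126-3p the means were 31.6 ± 27.2 (SD, n = 3) and 49.1 ± 19.3 CPM (SD, n = 3), and the log2 fold change was 0.61 ± 1.08 (SE, edgeR adjusted p = 0.911). For bta-miR-199a-5p they were 7.57 ± 9.38 (SD, n = 3) and 11.0 ± 14.1 CPM (SD, n = 3), and the log2 fold change was 0.63 ± 2.10 (SE, edgeR adjusted p = 0.979). It was 0.29 ± 2.05 for bta-miR-199b (SE, edgeR adjusted p = 0.987) and 0.82 ± 2.43 for bta-miR-214 (SE, edgeR adjusted p = 0.979). All 4 differences were smaller than their standard errors. These standard errors were calculated back from the F statistic of the test, so this adds nothing to the p-values. With each cow left out in turn, the value of bta-miR-126-3p ran from 0.13 without control cow 3 to 1.42 without control cow 1. The direction rests on single cows for bta-miR-199a-5p, with -1.37 without tested cow 2, and for bta-miR-214, with -0.28 without tested cow 1.

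None of the 4 members that were not chosen on this contrast passed the threshold by edgeR, DESeq2 or limma, and 0 of them had an unadjusted p below 0.05 by any of the 3 tools, where 29, 30 and 23 of all 623 miRNAs did by edgeR, DESeq2 and limma in turn. Of all 623 miRNAs 3.21% passed the threshold by edgeR, and of the 312 known miRNAs 0.962%. Over all 6 members the count is 1, bta-miR-199a-3p, and nothing is read from it because the contrast itself brought this miRNA into the set. It was 0 when control cow 1 or 3 or tested cow 1 was left out, and 2, with bta-miR-126-5p added, when tested cow 2 was. The groups overlapped for all 6, where they did not overlap for 8.01% of the 312 known miRNAs tested. The median log2 fold change of the 4 was 0.62, within their standard errors, and for the 312 known miRNAs it was -0.01. With the chosen pair included the median was 0.73, which the choice itself raises.

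**Figure D4:**
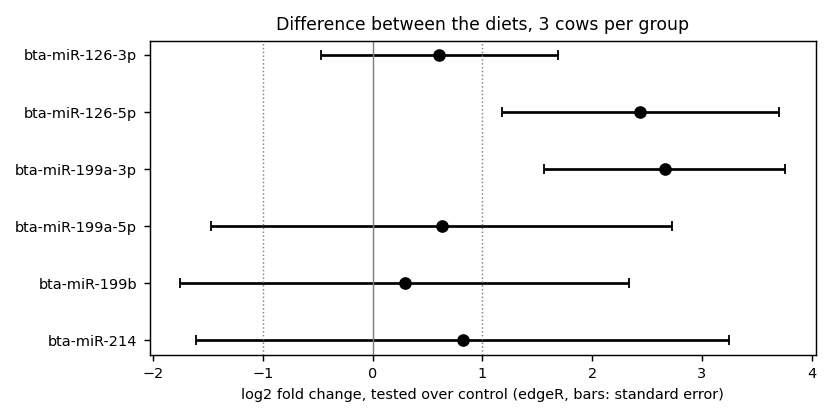
Log2 fold change of each miRNA, tested over control, from edgeR with its standard error, calculated back from the test, as a bar (3 cows per group). The solid line marks no difference and the dotted lines a log2 fold change of 1 in either direction; bta-miR-126-5p and bta-miR-199a-3p were chosen for this difference.

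Summed over the 6 members, the level was 111, 66.7 and 19.6 CPM in the control cows, against 330, 84.6 and 226 CPM in the tested cows. The group means were 65.8 ± 45.8 and 214 ± 123 CPM (SD, n = 3 each). Most of this gap comes from the pair chosen for it. The other 4 members summed to 82.0, 33.9 and 9.55 CPM in the control cows, against 75.8, 59.1 and 57.9 CPM in the tested cows, with means of 41.8 ± 36.9 and 64.3 ± 10.0 CPM (SD, n = 3 each), and the groups overlapped. The leading member was bta-miR-126-3p in every control cow, bta-miR-199a-3p in tested cow 1 and bta-miR-126-5p in tested cow 3. In tested cow 2, bta-miR-126-3p and bta-miR-199a-5p led together with 51 counts each.

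The order of the cows by the sum of all 6 was the reverse of another measure of the libraries, seen after the values were known. Known miRNA counts made up 8.50% of the clean reads in tested cow 1, 8.63% in tested cow 3, 10.8% in control cow 1, 15.6% in tested cow 2, 15.7% in control cow 2 and 18.0% in control cow 3. The summed level was lower in each of these cows than in the one named before it. Of 181 other known miRNAs with a mean of at least 10 CPM, 1 had exactly this order, and neither a single member nor the sum of the 4 members outside the chosen pair had it. When scaled to clean reads in place of known miRNA counts, the sum of the members was 28.1, 19.5, 12.0, 13.2, 10.5 and 3.53 counts per 1000000 clean reads in the same cows, and control cow 1 and tested cow 2 changed places. The part of this share in the levels of the members was not tested.

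In tested cow 1 the red blood cell miRNAs bta-miR-486, bta-miR-451 and bta-miR-144 were also at their highest. The list of bta-miR-451, bta-miR-144, bta-miR-486, bta-miR-16a and bta-miR-16b summed to 59719 CPM there, against 13625 to 28653 in the control cows, with 8760 and 11028 in the other tested cows. The sum is carried by bta-miR-486 and bta-miR-451, while bta-miR-16a was at its lowest in tested cow 1 (39.1 CPM) and bta-miR-16b in the middle of its range (71.7 CPM). Tested cow 1 also had the highest bta-miR-126-3p, bta-miR-199a-3p and bta-miR-214 and the highest sum of the members. Tested cow 3, which had the highest bta-miR-126-5p, had the lowest red blood cell sum. None of the 5 passed the threshold by edgeR, DESeq2 or limma, 0 had an unadjusted p below 0.05, and the list had a median log2 fold change of 0.35. Of the 312 known miRNAs 0.962% passed by edgeR, so 0 calls among 5 say nothing about this list. Leaving out single cows gave calls in opposite directions. Without tested cow 1, bta-miR-451 (log2 fold change -1.08) and bta-miR-486 (-1.01) passed as lower in the tested group, and without tested cow 3, bta-miR-451 (1.06) passed as higher. The part of red blood cell RNA in the levels of the members was not tested.

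Taken as a sum, other miRNAs known from platelets and endothelium were far more abundant than the members. The list of 12 summed to between 73632 and 93366 CPM in the control cows, against 70156 to 83791 in the tested cows. Its leading miRNAs were bta-miR-191 (mean 38376 CPM), bta-miR-151-5p (27376) and bta-miR-21-5p (7259), all of which other cell types express too. None of the 12 passed by edgeR, DESeq2 or limma. With 0.962% of the 312 known miRNAs passing by edgeR, 0 calls among 12 say nothing about this list. By edgeR 1 of the 12 had an unadjusted p below 0.05 (bta-miR-151-5p, with a log2 fold change of -0.32), where 29 of all 623 miRNAs did. For bta-miR-151-5p the unadjusted p was 0.138 by DESeq2 and 0.0228 by limma. Of the 12, 6 had a positive log2 fold change and the median was -0.02. When control cow 3 was left out, bta-miR-28 passed as lower in the tested group. It had 8.46 and 13.4 CPM in control cows 1 and 2 and no count in the other 4 libraries. The platelet miRNA bta-miR-223, also typical of neutrophils and counted in the white blood cell list too, had a mean of 16.9 CPM. This mean and those of bta-miR-222 (7.35 CPM) and bta-miR-28 (3.65 CPM) were below those of bta-miR-199a-3p, bta-miR-126-3p and bta-miR-126-5p. The rest of the 12 had means above those of all members.

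The 9 smooth muscle and fibroblast miRNAs, led by bta-miR-125b, bta-miR-29a and bta-miR-143 and sharing bta-miR-100 with the list before, summed to between 16013 and 18156 CPM in the control cows, against 15406 to 17190 in the tested cows. None of the 9 passed by edgeR, DESeq2 or limma, 0 had an unadjusted p below 0.05, and the median log2 fold change was 0.19. Of the 7 white blood cell miRNAs, 6 had a row, led by bta-miR-146b, bta-miR-150 and bta-miR-155. They summed to between 638 and 1315 CPM in the control cows, against 744 to 913 in the tested cows. None of the 6 passed by edgeR, DESeq2 or limma, 0 had an unadjusted p below 0.05, and the median log2 fold change was -0.42. As 0.962% of the 312 known miRNAs passed by edgeR, 0 calls among 9 and among 6 say nothing about these lists. When tested cow 3 was left out, bta-miR-146a passed as lower in the tested group (log2 fold change -3.51).

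**Figure D5:**
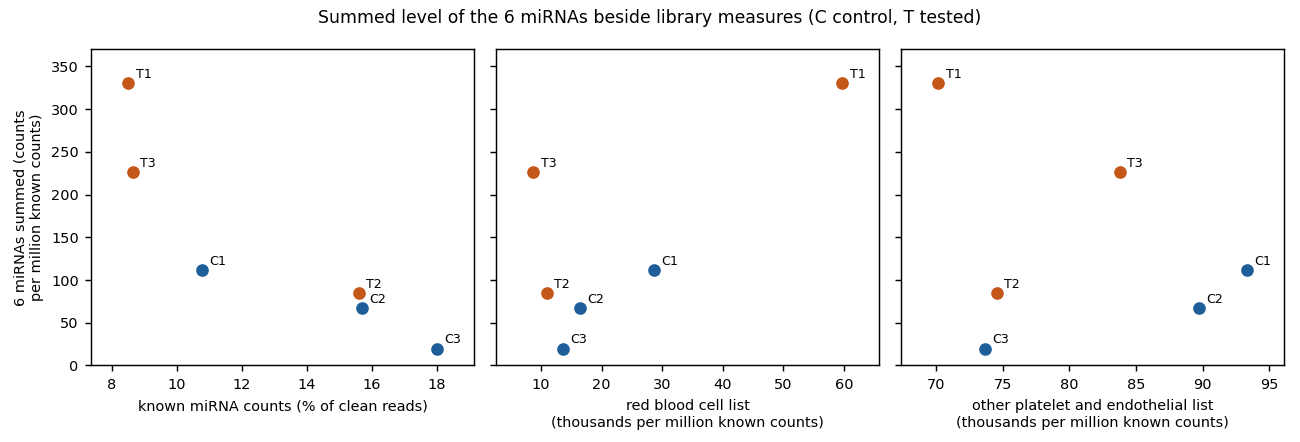
Summed level of the 6 members (CPM) beside the share of clean reads on known miRNAs (left), the red blood cell list (middle) and the other platelet and endothelial list (right), 1 point per cow. The summed level falls from T1 to C3 as the share of known miRNAs rises; T1 is the highest for the red blood cell list and T3 the lowest.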

How the data were processed

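Small RNAs of serum EVs from 6 cows were sequenced as 1 library per cow. The authors trimmed and filtered the reads by length and quality, matched them to the bovine genome (ARS-UCD1.2), removed other RNA classes and took known miRNAs from miRBase. The submitters' processing notes name cutadapt 1.14 and Bowtie. The counting tool is not given in the sources used here. The authors deposited counts without normalization and, in another table labelled TPM, RPM values that equal the deposited count scaled to 1000000 clean reads. The columns of fold changes and p-values in the deposited tables hold the authors' own comparison and were not used. No molecular identifiers are described.

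Levels are counts scaled to 1000000 known miRNA counts, written CPM (1226928 to 2088249 per library). The groups were compared with R 4.3.3 and edgeR 4.0.16 (TMM, glmQLFit, glmQLFTest) on 623 miRNAs with a summed count of at least 10. The biological coefficient of variation was 129%. Each standard error of an edgeR log2 fold change is its absolute value divided by the square root of the F statistic. Exact permutation tests, Wilson intervals and plots used Python 3.11.15, SciPy 1.17.1 and Matplotlib 3.10.9, with a pseudocount of 1 on the log2 scale. The fits were tested on simulated counts and the permutation tests on small sets of values with a known answer. Alternatives were DESeq2 1.42.0, limma 3.58.1, other factors, filters, totals and pseudocounts, known miRNAs only, merged nested sequences, robust estimation, the replicate number as a block and each library left out. The miRNAs named are the 6 members, the 3 most like each member with a mean of at least 10 CPM, those sharing a seed with a member, and the leading 3 of each of 4 marker lists. Others were named after their values were seen. The members and lists were chosen with earlier results of these data known. The labels give each cow as a separate sample, and p-values measure the spread between these samples.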

Additional observations from a re-analysis of the deposited data

How the results depend on the processing

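The number of members past the threshold, 1 with edgeR, was 2 with DESeq2 and with known miRNAs only, and 0 with limma; the cause was not tested. With the replicate number as a block it was 0. No source used here says that the numbers pair the cows. Deviations from the group means correlated at -0.058, -0.048 and -0.019 between cows of the same number. Between cows of different numbers they correlated at -0.061 to 0.106, so these values do not settle whether cows were paired. Without single cows the number of members past the threshold ran from 0 to 2. It was 1 under each other normalization, filter and estimation tried, though filterByExpr tested only 3 of the 6 members. Over all miRNAs, 20 of 623 passed with edgeR, against 26 with DESeq2, 15 with limma, 12 with the block, 13 of 348 with filterByExpr and 6 of 312 with known miRNAs only. The log2 fold change of bta-miR-199a-3p was positive in all 16 alternatives, from 1.46 to 3.31, as was that of bta-miR-126-5p, from 1.84 to 2.96. Both were chosen for this difference in the same cows, so nothing is read from the constant direction. Without single cows, the log2 fold change ran from -1.37 (no tested cow 2) to 2.29 for bta-miR-199a-5p and from -0.28 (no tested cow 1) to 1.42 for bta-miR-214. The correlation of the arms of miR-199a ran from -0.58 to 0.13 without single cows, and was above 0 when control cow 1, tested cow 2 or tested cow 3 was missing. Such correlations rest on 5 cows and were given no p. Pooled counts gave a 3p share of 51.4% for miR-126 and 82.6% for miR-199a, and counting bta-miR-199b with the 5p arm, an alternative chosen after seeing the data, gave a mean of 73.0% for miR-199a. Depth limits bta-miR-199b and bta-miR-214 most.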
